A study of Homo sapiens with 6 samples.

Results

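The genes described here are the 83 symbols that dropped furthest in K562 cells given 3FM-dC (20 µM) together with THU (2 mM) for 24 h. They were picked on the measured values themselves, out of 23710 gene symbols. A symbol needed at least 150 raw counts over the 3 DMSO libraries, which 10291 symbols reached, and a mean treated level of at most 0.4 of its mean DMSO level. Levels are CPM, a gene's count scaled by the library's sum of counts in genes. Of the 93 symbols that met both conditions, 10 were left out because they belong to gene groups defined elsewhere in the same data, among them KLF1, TET1, AQP1 and TUBB1. Since the treated and DMSO values chose the 83 genes, their differences are given as a description with no test.

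K562, an established human leukaemia line of chronic myelogenous origin, carries the BCR-ABL fusion and makes embryonic and fetal globins. Control cells received DMSO alone, the solvent of both compounds, so 3FM-dC and THU cannot be told apart here, and both groups were cultured in 10% serum at passages 13 to 16. Each group had 3 libraries, holding between 18408826 and 22750278 counts in genes. Nothing in the labels says that the 3 came from separate cultures, so the spread between them may be technical. The K562 markers HBE1, HBG1, HBG2, GATA1, TFRC, TAL1 and LMO2, the last of them also 1 of the 83, summed to between 6412 and 6597 CPM in DMSO and between 3588 and 3693 CPM in treated libraries. Markers of lymphoid, monocyte, granulocyte, fibroblast and endothelial cells summed to at most 25.5 CPM each. The epithelial pair EPCAM and KRT5 reached 98.6 to 99.8 CPM in DMSO, with no KRT5 count in any library.

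As background, red cell precursors are driven by a small set of transcription regulators, GATA1, TAL1, LMO2, LDB1 and KLF1. These switch on globins, heme enzymes and membrane skeleton proteins. Growth of these precursors depends on erythropoietin and its receptor. Cells also sense sterols in the endoplasmic reticulum: INSIG proteins hold back the SREBP factors, which otherwise raise genes of sterol synthesis and uptake, and INSIG1 is itself an SREBP target.

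The 83 genes spread from a ratio of 0.104 (treated over DMSO mean CPM) to 0.399, with a median of 0.34. Over the 10291 symbols with enough DMSO counts the median ratio was 1.04. A ratio of at most 0.3 was reached by 26 members and of at most 0.2 by 5: PPAP2C, IGSF1, PLCD1, AHSP and ACSS1. The members nearest to the threshold were PLD6 at 0.3993, ADD2 at 0.3961, TMEM56 at 0.3957 and MGAT3 at 0.3924. Just outside it stood PALM3 at 0.4033, GAS2L1 at 0.4043, B4GALNT4 at 0.4098 and DACT3 at 0.4109, and the ratios ran on across the threshold without a gap. Ratios this low were less common than the matching rise: 0.904% of the 10291 symbols were at or below 0.4, and 2.28% were at or above its inverse, 2.5-fold.

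In 81 of the 83 genes every treated library lay below every DMSO library, which was also so in 31.8% of the 10291 symbols. The exceptions were MYH6 and MYH7. All 83 were called lower by edgeR's quasi-likelihood test, against 32.7% of the 12339 genes tested; the way the genes were chosen fixed both counts. With 33.8% of tested genes called higher, the whole comparison was close to even, and scaling by total counts turned the 4031 lower and 4167 higher genes into 3189 and 5048. The median log2 fold change was -1.65 over the members and 0.01 over all tested genes.

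**Figure D1:**
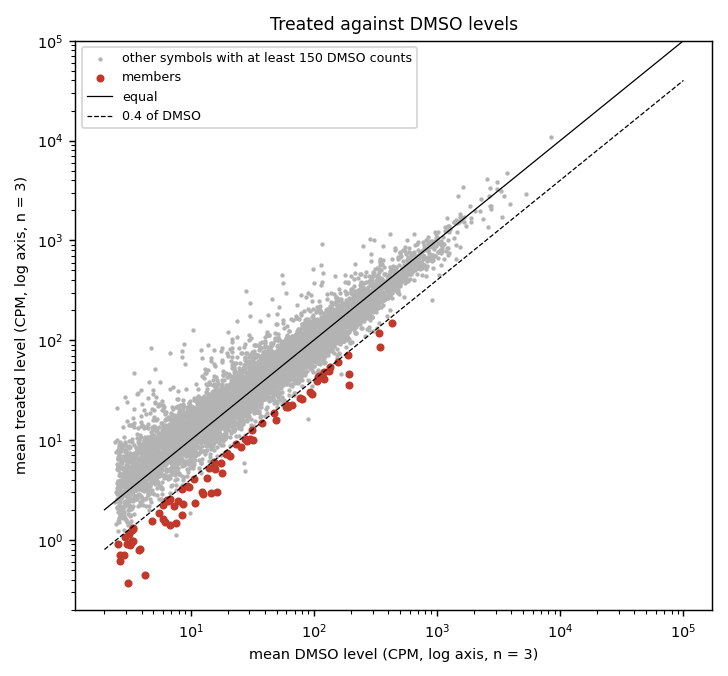
Mean DMSO level against mean treated level for each symbol with at least 150 DMSO counts (CPM, both axes logarithmic, 3 libraries per group). The 83 members (red) lie under the dashed line at 0.4 of the DMSO level, and grey points under that line are the 10 symbols left out by the rule.

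The members sorted by known role, after their values were seen, into 16 red cell genes, 10 genes of sterols and lipids, 14 of receptors and signalling, 13 of muscle and cytoskeleton, 11 of membrane transport and vesicles, 8 nuclear or cell cycle genes and 11 others. The 16 red cell genes had ratios from 0.186 to 0.396, with a median of 0.301. HEMGN, a nuclear protein of erythroid cells, measured 349, 346 and 339 CPM in DMSO libraries 1, 2 and 3 and 86.4, 87.9 and 80.3 CPM in treated libraries 1, 2 and 3. PKLR, the pyruvate kinase of red cells and liver, measured 194, 196 and 190.1 CPM against 48, 42.7 and 47.2 CPM. In both genes the gap between the groups was many times the spread within either. Their log2 fold changes were -2.11 (SE 0.04) for HEMGN and -2.16 (SE 0.05) for PKLR. In this bulk measurement fewer cells of a kind and less RNA per cell cannot be told apart.

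Regulators of the lineage were among them. LMO2, the bridging protein of the GATA1 and TAL1 complex, went from 134 ± 1.69 to 49 ± 5.2 CPM (SD, n = 3 per group, as for all pairs of this form), with treated libraries at 54.5, 44.2 and 48.3 CPM. EPOR, the erythropoietin receptor, went from 29, 27.4 and 34.3 CPM to 11.5, 9.07 and 10.2 CPM. These falls left both transcripts detectable in every treated library, at a ratio of 0.366 for LMO2 and 0.34 for EPOR.

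The globin side was represented by HBA2, HBD and AHSP, the chaperone of free alpha globin. HBA2 measured 152, 151 and 168 CPM in DMSO and 59.7, 59 and 61.3 CPM in treated libraries. HBA2 and HBA1 encode the same protein and can share reads, so the split between them is uncertain; HBA1, which is no member, went from 57.3 ± 12 to 25 ± 3.01 CPM. AHSP measured 17.5, 16.8 and 14.7 CPM against 3.78, 2.48 and 2.85 CPM, the lowest ratio of the red cell genes (0.186). HBD, the minor adult globin, went from 12.4 ± 0.785 to 3.03 ± 0.208 CPM; its exons overlap those of HBBP1 on the same strand in GENCODE release 29, so reads there may be shared.

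Proteins of the red cell surface and its skeleton made up most of the rest. ADD2, the beta adducin that caps spectrin and actin junctions, measured 131, 134 and 141 CPM in DMSO and 58.4, 49.3 and 53.1 CPM in treated libraries. EPB42, a protein of the membrane skeleton, rested on 356 DMSO counts and 95 treated counts, at 6.34, 5.65 and 5.89 CPM against 2.36, 1.39 and 1.06 CPM. KCNN4, the calcium-activated potassium channel of red cells, went from 18.1 ± 1.24 to 4.66 ± 0.703 CPM. SMIM1, which carries the Vel blood group, ACHE, the acetylcholinesterase anchored to red cells, and CA1, a carbonic anhydrase, went from between 15.4 and 25.6 CPM to between 5.41 and 8.53 CPM. CD36, a fatty acid and thrombospondin receptor of early erythroid and other cells, rests on few reads, 159 counts in all DMSO libraries and 37 in the treated ones. SLFN14, a ribosome-associated RNase of the platelet and red cell lineages, went from 8.75 ± 0.846 to 2.29 ± 0.394 CPM.

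**Figure D2:**
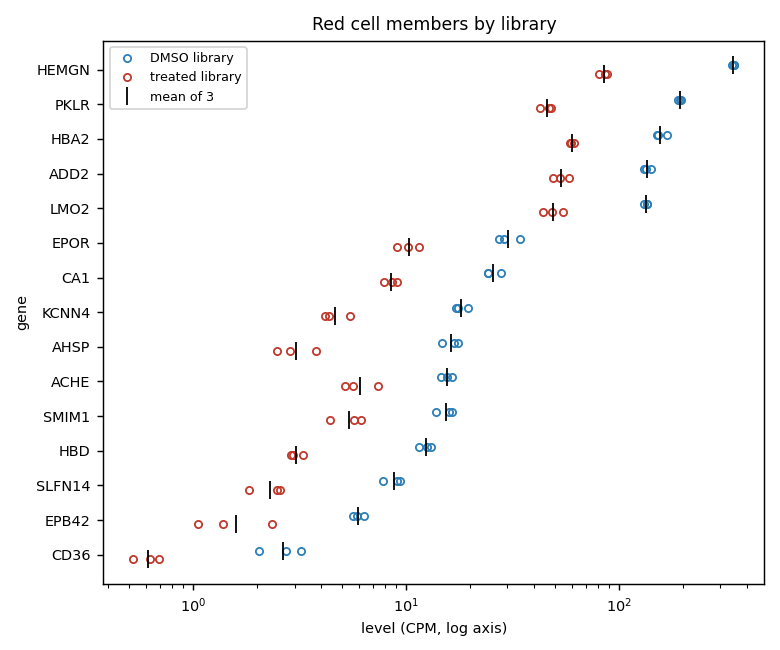
CPM of 15 of the 16 red cell genes in each library (logarithmic axis; blue, DMSO; red, treated; black ticks, means of 3). No red point reaches the blue points of its gene, from HEMGN at 345 against 84.9 CPM down to CD36 at 2.66 against 0.615 CPM.

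RefSeq promoter windows (GRCh38.p14, from 250 bases before to 50 after the annotated start) were at hand for 53 of the 83 genes. At 63.9% of the members this is too few for a statement on the set as a whole. The GATA hexamers AGATAA and TGATAA, searched on both strands and counted together, occurred in 10 of these 53 windows (18.9%), in 16.6% of all 27305 windows and in 7.39% of the 8359 windows of genes with at least 150 DMSO counts. The members with a match were PKLR, HBD, HEMGN, EPB42 and EPOR, of the 10 red cell members with a window, and TUBB4A, MYO3B, RAB3A, C17orf99 and SH2D1B, which are not red cell genes. For the 5 red cell genes the 250 bases before the start are shown, as examples of where the letters lie; all were chosen for their low ratio, and the match was not tested against it. The hexamers are in capitals, the sequence runs 5′ to 3′ on the gene's strand, and TTATCA and TTATCT are the same hexamers read on the other strand. The coordinates are those of the RefSeq table and not of the counts, for which the submitters' notes name hg19.
PKLR (chr1:155301439-155301688, minus strand): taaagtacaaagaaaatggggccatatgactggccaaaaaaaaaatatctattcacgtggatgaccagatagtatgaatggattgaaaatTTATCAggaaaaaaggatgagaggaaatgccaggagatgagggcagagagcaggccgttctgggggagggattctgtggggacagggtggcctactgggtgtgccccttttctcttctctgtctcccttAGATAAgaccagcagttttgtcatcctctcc
HBD (chr11:5234484-5234733, minus strand): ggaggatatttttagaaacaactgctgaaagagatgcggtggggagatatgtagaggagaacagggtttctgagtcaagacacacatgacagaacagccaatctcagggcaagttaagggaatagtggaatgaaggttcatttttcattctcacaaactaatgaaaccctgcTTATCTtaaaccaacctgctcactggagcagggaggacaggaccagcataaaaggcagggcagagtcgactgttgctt
HEMGN (chr9:97944853-97945102, minus strand): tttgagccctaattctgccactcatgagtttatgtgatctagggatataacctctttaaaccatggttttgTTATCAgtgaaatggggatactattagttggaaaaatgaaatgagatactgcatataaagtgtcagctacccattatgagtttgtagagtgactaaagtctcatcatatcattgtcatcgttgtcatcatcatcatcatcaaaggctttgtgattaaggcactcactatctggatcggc
EPB42 (chr15:43221019-43221268, minus strand): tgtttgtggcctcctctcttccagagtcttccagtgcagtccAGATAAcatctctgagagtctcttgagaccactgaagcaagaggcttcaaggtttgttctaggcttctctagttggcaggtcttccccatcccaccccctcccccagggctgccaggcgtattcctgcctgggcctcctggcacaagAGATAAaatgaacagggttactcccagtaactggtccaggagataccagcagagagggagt
EPOR (chr19:11384315-11384564, minus strand): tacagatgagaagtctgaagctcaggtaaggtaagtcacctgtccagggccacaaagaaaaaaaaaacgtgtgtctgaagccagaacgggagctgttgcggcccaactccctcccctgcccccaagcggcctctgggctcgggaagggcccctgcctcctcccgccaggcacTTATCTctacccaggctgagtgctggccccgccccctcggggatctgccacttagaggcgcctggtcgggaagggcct
The first base of the match lay 31 and 160 bases before the start in PKLR, 61 and 208 in EPB42, 78 in HBD, 78 in EPOR and 179 in HEMGN. The sterol element TCACCCCAC, searched on both strands, occurred in 1 of the 53 windows (1.89%), that of HYAL1. Its share was 0.425% of all windows and 0.371% of those of genes with at least 150 DMSO counts. The INSIG1 window held no match to it, and SCARB1 had no window. Of the other motifs searched the same way, the TATA box letters TATAAA stood at 11.3% of the 53 windows and 12% of all windows. Among windows of genes with at least 150 DMSO counts they stood at 4.94%. For the E-box letters CACGTG these shares were 15.1%, 7.43% and 10.8%, in that order. For the letters CCAAT they were 22.6%, 35.7% and 37.8%. A match is a run of letters and does not show that a factor binds there.

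The erythroid genes outside the set did not all move the same way. Most fell less far or rose, which the cut-off fixed beforehand for those with enough DMSO counts. Exceptions included CA2 (log2 fold change -2.76), with too few DMSO counts for the rule. KLF1, also on the list, met both conditions but was left out. Of the erythroid list, 72 of 80 genes were tested and 12 were members. Among the other 60 tested genes 40 were lower, 11 higher and 9 did not pass (38 lower and 14 higher with total counts), with a median log2 fold change of -0.47 against 0.01 for all tested genes. Among the partners of LMO2, LDB1 went from 184 ± 2.81 to 86.2 ± 6.55 CPM (log2 fold change -1.19, edgeR adjusted p = 3.86e-18), GATA1 from 254 ± 8.23 to 182 ± 6.98 CPM (-0.57, edgeR adjusted p = 7.03e-13), and TAL1 from 189.5 ± 6.35 to 218 ± 17 CPM (0.11, edgeR adjusted p = 0.0298). Of the heme enzymes on the list that were no members, FECH (-0.87), CPOX (-0.88), UROD (-0.49), UROS (-0.37) and PPOX (-0.26) were lower. ALAD did not pass (0.13, edgeR adjusted p = 0.275), and ALAS2, the erythroid first enzyme, was higher at 0.40. Membrane and skeleton proteins outside the set were mixed. SPTB (-0.96), TMOD1 (-0.68), ANK1 (-0.57) and EPB41 (-0.28) were lower, while SLC4A1, the band 3 anion exchanger that EPB42 binds, was higher at 0.80 (edgeR adjusted p = 0.000169) and ADD3, of the adducin family, at 0.18. FTH1 and FTL, the ferritin chains, were higher at 0.99 and 0.60. In the globin list all 7 tested genes that were no members were lower, with a median of -1.10. HBBP1, which the rule left out, was among them at -2.56 (ratio 0.181), further down than HBD and HBA2.

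Sterol and lipid genes numbered 10, with ratios from 0.104 to 0.399. INSIG1, the sterol sensor described above, measured 429, 449.8 and 409.8 CPM in DMSO and 178, 121 and 152 CPM in treated libraries. SCARB1, a receptor for high-density lipoprotein, measured 191, 188 and 192 CPM against 78.2, 66.5 and 69.5 CPM. In both the treated libraries kept the same order, with library 1 highest and library 2 lowest, but none came near the DMSO range. OSBP2, an oxysterol-binding protein, went from 96.4 ± 4.06 to 29 ± 3.65 CPM.

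Outside the set, 18 of the 23 other tested genes of the cholesterol list were lower, 1 was higher and 4 did not pass (17 lower and 2 higher with total counts). Their median log2 fold change was -0.60. The enzymes LSS and CYP51A1 stood at -1.21 and -0.99. SREBF2, which encodes the SREBP factor of sterol genes, had a mean of 200.4 ± 6.89 CPM without and 223 ± 4.74 CPM with the compounds (log2 fold change 0.07, edgeR adjusted p = 0.148). None of the 20 tested genes of the fatty acid list was a member; 15 were lower and 4 higher (13 and 5 with total counts), with FADS1, which the rule left out, among the lower ones.

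Of the 5 lowest ratios in the set, 3 belonged to lipid and acetate enzymes: PPAP2C, PLCD1 and ACSS1. PLCD1, a phospholipase C that cuts a membrane phosphoinositide, measured 199, 192 and 193 CPM in DMSO and 40.6, 29.7 and 37.6 CPM in treated libraries, a log2 fold change of -2.53 (SE 0.07). Its ratio was 0.185 and it rests on 11635 DMSO and 2152 treated counts. PPAP2C, a lipid phosphate phosphatase now named PLPP2, had the lowest ratio of all at 0.104. It measured 4.73, 4.18 and 3.91 CPM against 0.262, 0.446 and 0.627 CPM, and the treated values come from 27 counts in all. ACSS1, the mitochondrial enzyme that makes acetyl-CoA from acetate, measured 8.7, 7.22 and 6.77 CPM against 0.735, 1.59 and 2.12 CPM. INPP1, an inositol phosphate phosphatase, CHDH, choline dehydrogenase, and PLD6, a phospholipase D family protein of mitochondria, had ratios between 0.359 and 0.399.

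Receptors and their adaptors formed the next group. FGFR3, a receptor for fibroblast growth factors, measured 111, 108 and 114 CPM in DMSO and 52.7, 36.4 and 40.8 CPM in treated libraries. FGFR4, of the same family, measured 38.8, 39.2 and 35.4 CPM against 14.1, 15.1 and 15.2 CPM. GAB1, a docking protein that receptor kinases phosphorylate, measured 50.1, 48.5 and 44.7 CPM against 16.5, 19.8 and 19.3 CPM. These 3 sat near the threshold, at ratios of 0.387 to 0.392, with groups far apart. FGFR1, by contrast, rose from 0.153 ± 0.172 to 2.9 ± 0.593 CPM (log2 fold change 3.99, SE 0.47, edgeR adjusted p = 2.04e-08), on 10 DMSO counts in all. GAB2 rose from 50.1 ± 3.35 to 181 ± 7.08 CPM (1.77, SE 0.05, edgeR adjusted p = 6.12e-22), while GAB3 fell from 50.5 ± 1.86 to 21.4 ± 2.19 CPM.

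Other signalling members included secreted factors and G protein-coupled receptors. GAL, the neuropeptide galanin, measured 107, 103 and 109 CPM in DMSO and 41, 34.8 and 42.4 CPM in treated libraries. SLIT2, a secreted guidance cue for ROBO receptors, measured 13.7, 16.5 and 14.1 CPM against 3.57, 2.43 and 2.89 CPM. SEMA6B, a membrane semaphorin, went from 6.25 ± 0.758 to 1.5 ± 0.55 CPM. KISS1R, the kisspeptin receptor, went from 28.7 ± 2.46 to 9.82 ± 0.776 CPM, and APLNR, the apelin receptor, from 6.49 ± 1.05 to 2.53 ± 0.534 CPM. IGSF1, an immunoglobulin-like membrane protein, had the second lowest ratio (0.118) and tight DMSO values of 3.12, 3.04 and 3.16 CPM against 0.42, 0.347 and 0.338 CPM. LINGO1 (a leucine-rich repeat membrane protein of neurons), ARHGAP22 (an activator of small GTPases), TESC (a calcium-binding protein), AMER1 (a WNT pathway regulator) and SH2D1B (an SH2 adaptor of natural killer cells) had ratios between 0.312 and 0.376.

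**Figure D3:**
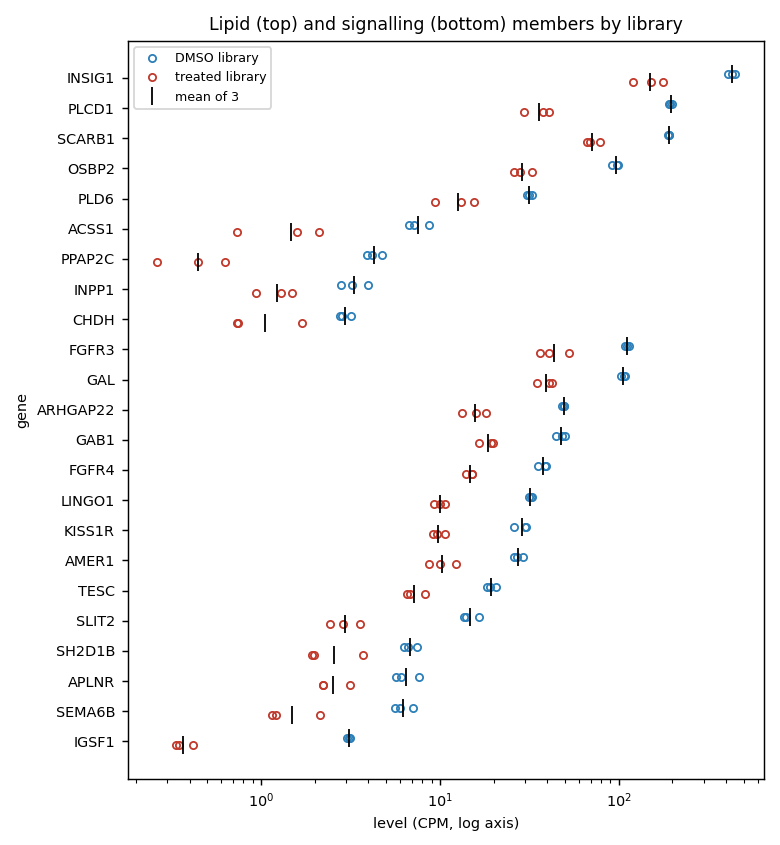
CPM of 9 of the 10 sterol and lipid genes (upper block) and 14 receptor and signalling genes (lower block) in each library, on a logarithmic axis with the same marks as for the red cell genes. Groups are apart for every gene; CHDH and ACSS1 show the widest spread among treated libraries relative to their level, and PLCD1 drops from 195 to 36 CPM.

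Muscle, filament and cytoskeleton genes numbered 13, with a median ratio of 0.301. NEFH, the heavy neurofilament chain, measured 62.4, 62.1 and 56.8 CPM in DMSO and 25.7, 18.7 and 22.9 CPM in treated libraries. MICALL2, an adaptor of actin and Rab proteins, went from 77.5 ± 7.34 to 26.6 ± 4.28 CPM. DES (desmin), CNN1 (calponin), TNS1 (tensin), DDN (dendrin), TUBB4A (a beta tubulin), CRYAB (a small heat shock protein), MYO3B (an unconventional myosin) and PALMD (palmdelphin) had between 3.2 and 17.5 CPM in DMSO and ratios between 0.205 and 0.377. CNN1 was the only member among the 36 tested genes of the actin and adhesion list, where 9 of the other 35 were lower and 19 higher. CRYAB was the only member of the heat shock list, where 20 of the other 27 tested genes were lower and 3 higher.

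MYH6 and MYH7, cardiac myosin heavy chains that lie side by side on chromosome 14, were the only members whose groups overlapped. MYH6 measured 10.9, 7.66 and 3.47 CPM in DMSO and 2.15, 0.694 and 3.76 CPM in treated libraries. MYH7 measured 5.7, 3.1 and 1.49 CPM against 1.26, 0.644 and 2.07 CPM. In both genes DMSO library 1 was highest and DMSO library 3 lowest, treated library 3 overlapped the DMSO range, and both left the set when 1 library was dropped. The genes are similar in sequence and can share reads, so they are not independent of each other.

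Among channels, transporters and vesicle genes, SDPR, a caveolar coat protein now named CAVIN2, measured 122, 115 and 123 CPM in DMSO and 48.5, 33.6 and 40.4 CPM in treated libraries. RAB3IL1, an exchange factor for Rab proteins, measured 58.6, 65.6 and 61.8 CPM against 21.6, 19.5 and 22.9 CPM. RAB3A, a GTPase of secretory vesicles, measured 2.47, 3.91 and 2.68 CPM against 1.57, 0.595 and 0.579 CPM. SLC17A7, a vesicular glutamate transporter, went from 20.8 ± 1.73 to 6.92 ± 0.721 CPM. SLC2A4, the insulin-responsive glucose transporter, went from 3.87 ± 0.259 to 0.818 ± 0.209 CPM. SLC22A4, a transporter of ergothioneine, went from 9.69 ± 0.422 to 3.36 ± 0.196 CPM. TMC8 and TMC5, of the transmembrane channel-like family, KCNH4, a voltage-gated potassium channel, SNX22, a sorting nexin, and EXOC3L4 had ratios between 0.264 and 0.363. In the list of plasma membrane channels and transporters KCNN4 and SLC22A4 were the members, and 14 of the other 26 tested genes were lower and 9 higher. AQP1, also on this list, met both conditions but was left out by the rule.

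Nuclear and cell cycle genes were few. RARG, a retinoic acid receptor, measured 12.6, 12.7 and 12.5 CPM in DMSO and 3.2, 2.78 and 2.7 CPM in treated libraries. RARA, its close relative, had 40.7 ± 1.43 and 38.5 ± 2.15 CPM (log2 fold change -0.17, edgeR adjusted p = 0.0275), a call that total-count scaling removed. FAM83D, a spindle protein, measured 81.4, 78.4 and 79.8 CPM against 27.5, 24.4 and 24.9 CPM and was the only member of the mitosis list, where 16 of the other 28 tested genes were lower and 4 higher (13 and 6 with total counts) with a median log2 fold change of -0.15. CDKN1C, an inhibitor of cyclin-dependent kinases, went from 14.0 ± 0.432 to 5.29 ± 1.46 CPM. CDKN1A, of the same family, rose from 5.15 ± 0.854 to 24 ± 4.44 CPM (2.13, SE 0.14, edgeR adjusted p = 5.18e-14). FOXH1, a partner of SMAD proteins, CITED1, a coactivator of CBP and p300, RGCC, a regulator of the cell cycle, RBPMS2, an RNA-binding protein, and RBP5, a retinol-binding protein, had ratios between 0.347 and 0.381.

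The remaining members share no role. IFI30, a thiol reductase of lysosomes, measured 89.3, 94.5 and 98.3 CPM in DMSO and 33.9, 27.8 and 29.6 CPM in treated libraries. TMEM56, now named TLCD4, measured 128, 127 and 109.7 CPM against 49.7, 47 and 47.7 CPM, and RFESD, an iron-sulfur domain protein, 111, 102 and 112 CPM against 44.8, 40.2 and 42.1 CPM. HYAL1, a hyaluronidase, MGAT3, an enzyme of N-glycans, FAM213B, now PRXL2B, SERHL2, TMEM52, CCDC68 and C17orf99 had between 2.9 and 23.2 CPM in DMSO. SNORD17, a small nucleolar RNA and the only member that does not code for protein, had 198 DMSO counts and 58 treated counts. The libraries came from a messenger RNA kit, and whether these counts come from the mature small RNA was not tested.

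**Figure D4:**
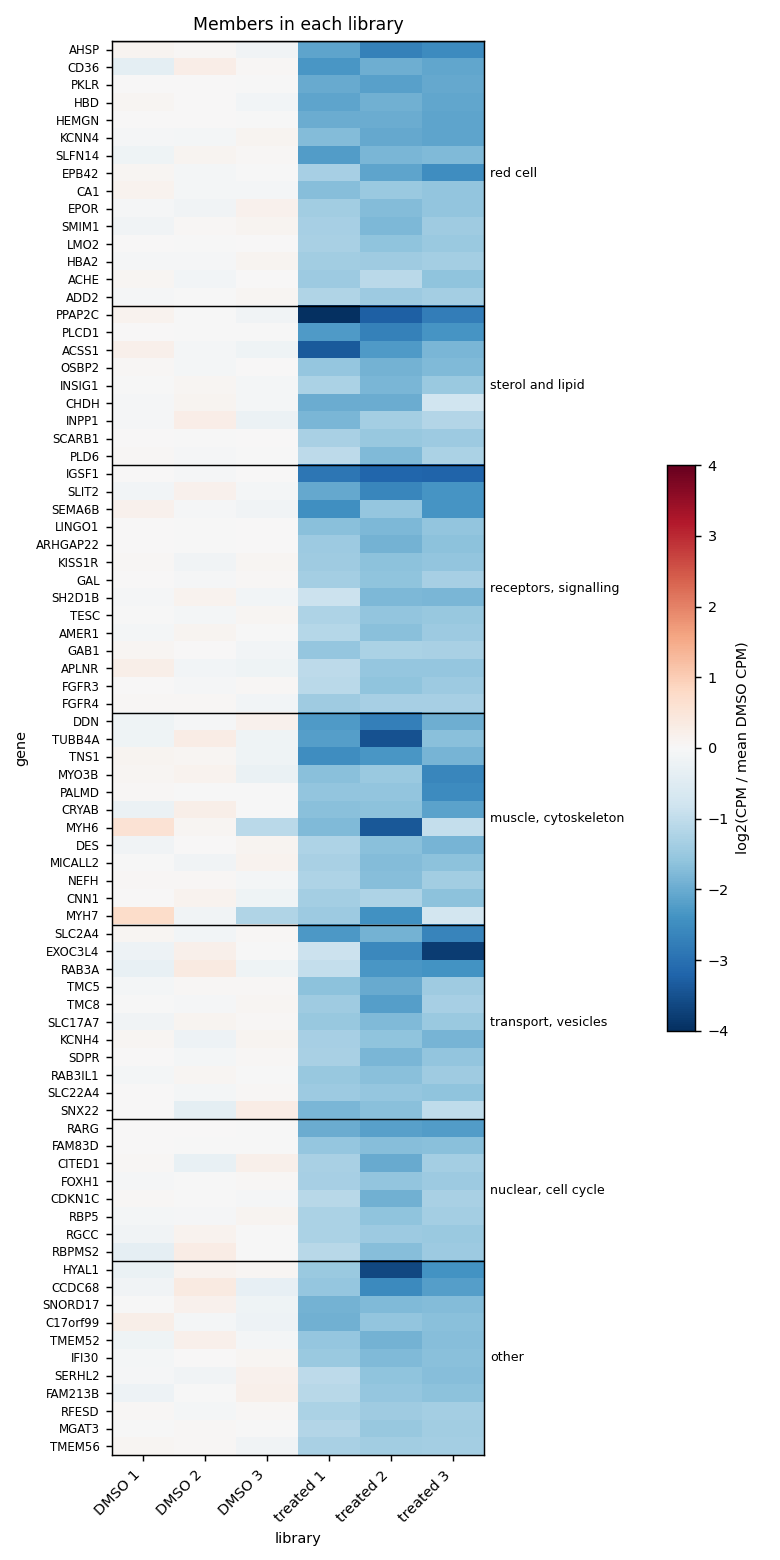
Each row is 1 of 80 members, grouped by role, and each column a library; colour is the log2 of its CPM over the gene's mean DMSO CPM, so blue is lower. All treated columns are blue, MYH6 and MYH7 are the rows in which DMSO library 3 is also clearly blue, and treated library 2 is often the darkest of the treated columns.

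The treated libraries differed from each other in a common way across the set. Treated library 2 was the lowest of the 3 treated libraries in 47 of 83 members (56.6%), against 34.3% of the 10291 symbols. Treated library 1 was the highest in 51 members (61.4%), against 33%. The summed level of all members was 4061, 4030.3 and 4041 CPM in DMSO libraries 1, 2 and 3, and 1455, 1212 and 1327 CPM in the treated ones. The median coefficient of variation over members was 7.9% in DMSO and 16.6% in treated libraries, against 4.55% and 5.11% over the 10291 symbols; lower counts raise this value, and their part in it was not tested. Without treated library 2 the rule gave 70 genes, 67 of them members.

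Genes with few reads made up more of the set than of the whole table. Members had a median DMSO level of 14.8 CPM, against 42.8 CPM for the 10291 symbols. Of the symbols under 5 CPM, 2.55% were members (19 of 746), and of those from 5 to 20 CPM, 1.38% (31 of 2247). Between 20 and 100 CPM the share was 0.402% (19 of 4732), and from 100 CPM upward 0.546% (14 of 2566). Per kilobase of exon in GENCODE release 29, which merges all isoforms, the most abundant members in DMSO were HBA2 at 189.7, HEMGN at 144, INSIG1 at 118 and GAL at 81.9 CPM per kilobase, among the members reported by name. Median exon length was 3738 bases over the members and 5134 bases over the 97.9% of the 10291 symbols that matched by name.

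Relatives of the members, picked by family name once the members were known, were mixed. Of 33 tested relatives of 28 members, 15 were lower, 10 were higher and 8 did not pass (12 lower and 11 higher with total counts), with a median log2 fold change of -0.03. Pairs in which the relative rose were LMO2 with LMO4 (36.2 ± 3.27 to 80.5 ± 5.63 CPM), MICALL2 with MICALL1 (31.2 ± 2.72 to 106 ± 18.1 CPM) and SCARB1 with SCARB2, a lysosomal membrane protein (30.0 ± 0.873 to 62.3 ± 5.03 CPM). Relatives that moved down with their member included CNN2 (221 ± 1.17 to 118 ± 4.43 CPM), SLC22A5 (log2 fold change -0.97) and SLC2A1 (-0.89). INSIG2 and ADD1 did not pass, at 0.01 (SE 0.13) and -0.03 (SE 0.04), and PKM, the pyruvate kinase of most tissues, stood at -0.14, a call that total-count scaling removed.

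Genes next to the members were also counted. The nearest tested gene on each side, in RefSeq order, gave 161 genes that were no members. Of these 79 (49.1%) were lower and 44 (27.3%) higher, against 32.7% and 33.8% of all tested genes, and their median log2 fold change was -0.15. The 161 include HBBP1 (-2.56), which the rule left out. They also include genes whose exons overlap a member's, some lower (TMEM56-RWDD3 at -1.54, SPATA9 at -1.80) and some higher (PPIB at 0.20). Besides MYH6 and MYH7, C17orf99 and TMC8 on chromosome 17 were neighbours that were both members. For 18 members an exon overlaps that of another gene in the files, on the opposite strand in 15. The kit marks strand, but the strand setting of the counting is not given in the sources used here, so the reads of such a pair may not be separated. Opposite TMC8, RFESD, PKLR, RAB3A and SERHL2 the fitted log2 fold change was -0.79 for TMC6, -1.80 for SPATA9, -0.40 for HCN3, -0.69 for MPV17L2 and -0.68 for RRP7B. Opposite FOXH1, PLD6 and SNX22 it was above 0, with KIFC2 at 0.24, MPRIP at 0.23 and PPIB at 0.20.

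Of the 24 gene lists considered, 7 held at least 1 member and 22 of the 83 genes stood in any list, OSBP2 among the erythroid genes. Symbols that the rule left out, such as KLF1, HBBP1, AQP1, TUBB1 and HMGCS1, do not count as members in these lists. Several lists were mostly lower without holding a member. In ribosome biogenesis and MYC targets 39 of 41 tested genes were lower and none higher, with a median log2 fold change of -0.56. In nucleotide metabolism 26 of 36 were lower and 4 higher, with a median of -0.32. In the integrated stress response list 37 of 38 were higher and none lower, with a median of 1.70.

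**Figure D5:**
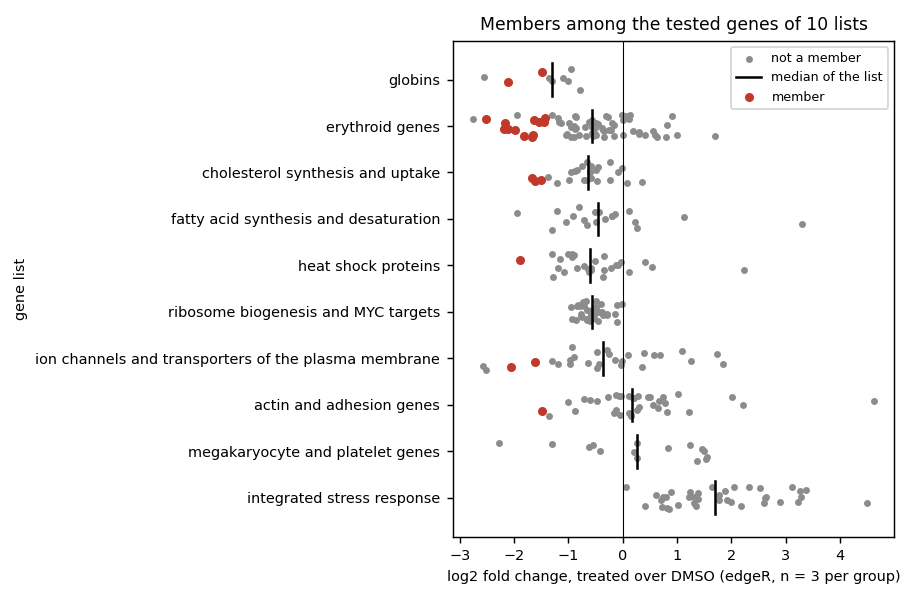
Log2 fold change (treated over DMSO, edgeR) of the tested genes of 10 lists, members in red, other genes in grey, list medians as black bars. Members sit toward the left of the erythroid and cholesterol lists, where CA2 (-2.76), with too few DMSO counts for the rule, lies furthest left of the erythroid genes, and the ribosome biogenesis list lies left of 0 without a member.

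The authors' deposited table compares a group B with a group A that its header does not name. All 83 members were listed there, with ratios between 0.0968 (PPAP2C) and 0.372 (PLD6) and a median of 0.316. In all 83 this ratio was lower than the ratio of mean CPM given above. CPM scales by total counts, and the scaling of the authors' ratio is not given. Over all tested genes the median log2 fold change was 0.10 with total counts and 0.01 with TMM factors. The share of all genes with a lower ratio in the authors' table was not counted. Whether scaling accounts for the difference was not tested.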

How the data were processed

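RNA from 6 K562 samples was sequenced from libraries made with 1000 ng of RNA by a directional messenger RNA kit, per the labels' protocols. What the authors deposited for each library is a file of whole-number read counts by symbol. STAR, Cufflinks, DESeq2 and hg19 are named without role, per the submitters' processing notes; the counter, its strand setting and the annotation are among the things not given in the sources used here. The authors' deposited fold ratio per gene, per the file headers, served only for a side-by-side value.

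Members were found from CPM over the 23710 gene rows; reads in no gene (10.9% to 13.1%) or in several (2.27% to 2.38%) were left out. The members, gene lists, roles and relatives were chosen with earlier results of these data known. Named genes are the 20 lowest ratios, the 12 highest DMSO levels, the 4 genes on each side of the threshold and every member in a list; some genes are not reported here, the other members are named once, and some fuller descriptions were chosen after values were seen.

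Genes were tested across all 12339 that passed filterByExpr (minimum count 10) with edgeR 4.0.16 in R 4.3.3, using TMM factors, the quasi-likelihood test with treatment as its term, and Benjamini-Hochberg adjustment at 0.05, two-sided. The script was tested on simulated data. SE is that of the log2 fold change, worked back from the test as its absolute value over the square root of the quasi-likelihood F statistic. Replicate pairs differed beyond counting noise (chi-square per degree of freedom 2.38 to 6.22, genes with at least 20 counts per pair). The highest value was between treated libraries 1 and 2. All 6 libraries were kept, and these values do not show whether they came from separate cultures. Symbols were matched to RefSeq by name or synonym (22695 of 23710, and all 83 members, 4 under another symbol). Alternatives were other scalings, filters, thresholds, DESeq2 1.42.0, a replicate block and leaving out each library.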

Additional observations from a re-analysis of the deposited data

How the results depend on the processing

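The number of members depended on the cut-offs. It was 795 with no DMSO count minimum, 53 with a minimum of 500 counts, 161 at a ratio of at most 0.5, 26 at a ratio of at most 0.3, and 34 when every treated library had to be at most 0.4 of the lowest DMSO library. Scaling mattered less, with 97 genes under TMM and 101 under DESeq2 size factors, all 83 members among both. Leaving out 1 library at a time gave 70 to 88 genes, and 56 of the 83 members stayed in all 6 settings; FGFR3, FGFR4, GAB1, ADD2, ACHE, CD36, MYH6 and MYH7 are among the 27 that did not.

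The count of lower genes ranged from 3189 with total counts to 4179 with no filter, and of higher genes from 3535 with a filter at 5 CPM to 5048 with total counts. The members' median log2 fold change ranged from -1.78 (without treated library 1) to -1.56 (total counts). Of 444 values of 41 named members under the alternatives, 8 moved by more than the spread between libraries, most of them with total counts (HEMGN from -2.11 to -2.02, PKLR from -2.16 to -2.07). None changed sign, which the choice of members by their low ratio made unlikely beforehand. The replicate block gave 3959 lower and 4091 higher genes and a members' median of -1.66. Deviations of same-numbered libraries from their group means correlated at -0.009, 0.001 and -0.055. These values showed no sign of pairing by number, but with 3 libraries per group they cannot exclude it. With promoter windows from 150 bases before the start, the CCAAT motif (letters CCAAT, both strands) fell from 22.6% to 9.43% of the 53 windows. Its share fell from 35.7% to 27.5% of all windows. Among windows of genes with at least 150 DMSO counts it fell from 37.8% to 30.1%. In these shorter windows the GATA hexamers stood at 15.1% (8 of the 53), against 10.6% of all windows and 3.73% of those of genes with at least 150 DMSO counts. Members under 5 CPM rest on few reads, and a PCR read without a molecular tag is not an independent molecule.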
